A study of Mus musculus with 6 samples.

Results

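The neuropeptide precursor genes *Npy*, *Agrp*, *Pomc*, *Penk*, *Pdyn*, *Tac1*, *Calca*, *Vip*, *Nts* and *Gal* were examined in RNA-Seq of whole mouse tibia. They were selected from a list of symbols by GENCODE M21 annotation and make up 10 of the 55401 genes counted in each library. *Cartpt*, a further neuropeptide precursor gene, was used as a reference. The study compared 3 Atrx-cKO with 3 control mice to find genes whose expression in bone changes when the chromatin remodeler ATRX is deleted in osteoblast progenitors. Atrx-cKO mice had the genotype *Osterix-Cre; Atrx* f/y, and control mice carried the same floxed *Atrx* allele without Cre (*Atrx* f/y), so all animals were males. The Cre line is a Tet-off transgene in which the *Sp7* (Osterix) promoter drives the tetracycline transactivator, which switches on a fusion of EGFP and Cre. Doxycycline kept Cre off from conception to 3 weeks of age, and tibias were collected at 8 weeks. Control mice had no transgene, and mice with Cre but an intact *Atrx* allele were not among the 6 libraries. In these libraries, effects of the transgene and of the deletion therefore cannot be told apart. Outside the RNA-Seq, the study compared Cre-only with floxed control mice. It reported no significant difference in bone measures or in *Runx2*, *Col1a1* and *Ocn* of tibia. It also reported higher *Cartpt* after *Atrx* knockdown by siRNA in a differentiating preosteoblast cell line. The libraries held between 50977777 and 70571655 read counts assigned to genes. Nothing in the labels ties a replicate number to a litter or a day, and each library was taken as 1 mouse of its group.

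Neuropeptides are made as larger precursor proteins that are cleaved in the secretory pathway by prohormone convertases, trimmed by carboxypeptidase E and in many cases amidated at the carboxyl end, and they signal mostly through G protein-coupled receptors. The bulk of precursor synthesis takes place in neuronal cell bodies, which lie outside the bone, whereas sensory and sympathetic fibres bring the finished peptides into periosteum and marrow. Substance P (from *Tac1*) and calcitonin gene-related peptide (CGRP, from *Calca*) are typical of sensory fibres in bone, vasoactive intestinal peptide (*Vip*) is found in autonomic fibres, and neuropeptide Y (*Npy*) is found in sympathetic fibres and is also made by osteoblast lineage cells.

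The promoters of the precursor genes were compared first, because *Cartpt* is known to be regulated through a cAMP response element (CRE). RefSeq promoter windows (GRCm38.p6) were matched for 8 of the 10 genes. *Agrp* and *Penk* had no window under their symbols, so their promoters were not examined. The 120 bases before the start of *Cartpt*, the reference, are shown with those of *Npy*, the most abundant of the 10 genes, of *Gal*, the gene with the lowest unadjusted p, and of *Vip*, whose window holds the core of a CRE. Each is written 5′ to 3′ on the strand of its gene, and capitals mark a match to TGACG, the core of the CRE, to the complete CRE TGACGTCA or to the TATA box letters TATAAA, on either strand. The windows lie at chr13:99900684-99900803 (minus strand) for *Cartpt*, chr6:49822590-49822709 (plus strand) for *Npy*, chr19:3414545-3414664 (minus strand) for *Gal* and chr10:5639098-5639217 (plus strand) for *Vip*.
Cartpt: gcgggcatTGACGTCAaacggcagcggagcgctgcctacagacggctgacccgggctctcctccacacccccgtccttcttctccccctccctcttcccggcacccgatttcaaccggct
Npy: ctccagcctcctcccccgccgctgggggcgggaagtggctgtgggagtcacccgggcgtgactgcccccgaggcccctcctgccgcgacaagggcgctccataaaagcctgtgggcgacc
Gal: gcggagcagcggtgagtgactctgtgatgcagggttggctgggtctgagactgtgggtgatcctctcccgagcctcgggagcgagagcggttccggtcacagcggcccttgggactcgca
Vip: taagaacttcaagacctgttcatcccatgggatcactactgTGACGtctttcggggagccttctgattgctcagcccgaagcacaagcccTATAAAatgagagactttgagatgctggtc

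Within the 250 bases before the start, the complete CRE was present in the window of *Cartpt* and in 0 of the 8 matched genes, against 1.55% of 32851 RefSeq promoters. The shorter core TGACG, which the complete CRE contains, was present in 4 of the 8 (*Tac1*, *Calca*, *Vip* and *Nts*), against 17.8% of all promoters. TATAAA was found in 2 of the 8, *Pomc* and *Vip*, against 12.4%. A match describes the letters in the window only, and binding was not measured here.

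*Npy* was by far the most abundant of the 10 genes, with between 365 and 991 counts in every tibia, and *Pdyn* was not detected. Over all 6 libraries, 5 genes (*Npy*, *Penk*, *Gal*, *Agrp* and *Pomc*) had more than 3 counts in every library. The value of 3 counts was taken as the floor of detection and corresponded to between 0.0450 and 0.0630 CPM, the count scaled to library size, in single libraries. Among all genes of the files, 36.8% exceeded that floor in every library and 34.4% had 0 counts in every library. These 5 genes were also the ones that passed edgeR's filter on low counts and were tested between the genotypes, and *Vip*, *Calca*, *Tac1*, *Nts* and *Pdyn* were not tested. All CPM values are TMM-normalized, that is, divided by a library size corrected for differences in composition.

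**Figure D1:**
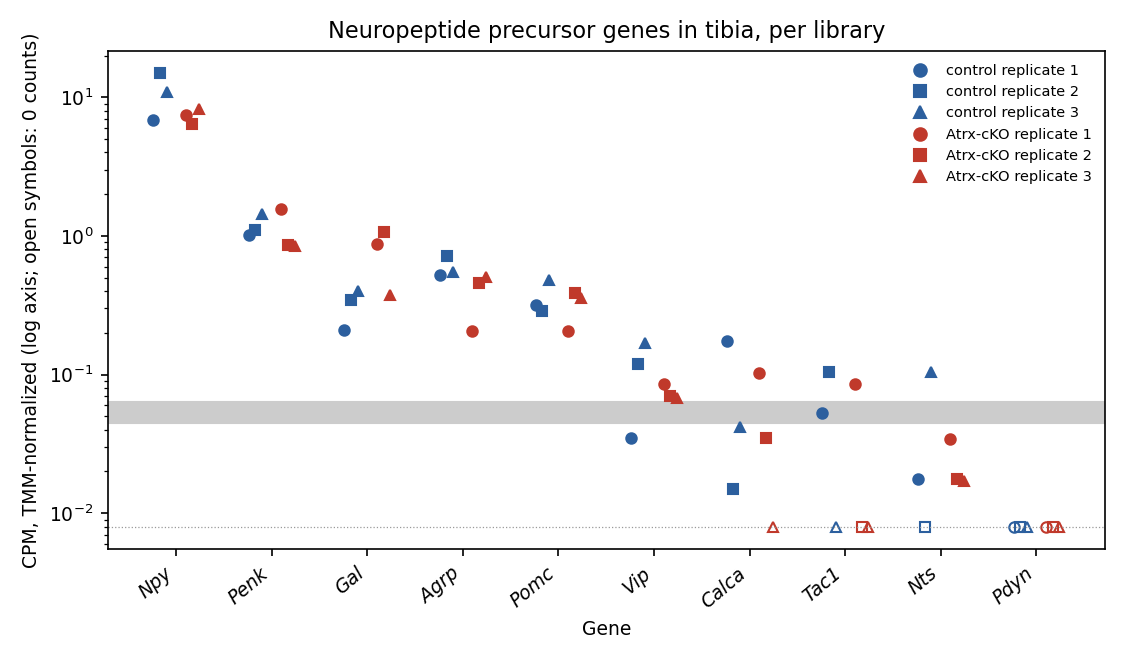
CPM of the 10 neuropeptide precursor genes (x axis, ordered by mean CPM) in each of the 6 tibia libraries on a log axis, with blue symbols for control, red for Atrx-cKO, open symbols for 0 counts, and a grey band for the floor of 3 counts (0.0450 to 0.0630 CPM). *Npy* lies above all other genes in every library, *Penk*, *Gal*, *Agrp* and *Pomc* lie above the floor in every library, and *Pdyn* is at 0 in all 6.

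When the CPM was divided by exonic length to compare genes, *Npy* averaged 16.1 CPM per exonic kb over the 6 libraries (range, 11.3 to 26.3), 23.2 times the mean of the next gene. *Penk* followed at 0.696, *Gal* at 0.691, *Agrp* at 0.487 and *Pomc* at 0.257 CPM per exonic kb, and the ranges of neighbours among these 4 overlapped. A further gap without overlap separated *Pomc* from *Calca* at 0.0366, with a ratio of 7.01. *Calca*, *Vip* (0.0268), *Nts* (0.0255) and *Tac1* (0.0119) had overlapping ranges and cannot be ordered. *Npy* contributed between 68.9% and 84.7% of the summed CPM of the 10 genes in each library. In those libraries between 41.7% and 54.2% of tested genes had a lower CPM than *Npy*, a rank that is not corrected for gene length.

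The question put to these genes was whether any of them differed between Atrx-cKO and control tibias as *Cartpt* did. A gene was called where it passed an adjusted p of 0.05 and differed at least 2-fold (1 on the log2 scale) in edgeR's quasi-likelihood test. None of the 5 tested genes was called, and DESeq2 called none of them either. Across all 20636 tested genes edgeR called 0.0145% (*Cartpt*, *Tcfl5* and *Lyrm4*, all higher in Atrx-cKO) and DESeq2 called 0.0961% of the genes it gave an adjusted p. *Tcfl5* and *Lyrm4* encode no neuropeptide precursor and were named after their values were seen. Irrespective of p, 1 of the 5 (*Gal*) reached a 2-fold difference, against 3.34% of all tested genes. At an unadjusted p under 0.05, edgeR counted 1 of the 5 (*Gal*), against 3.64% of all tested genes (751 of 20636, and 2076 of 21349 without control 1). That count was 0 of 5 with the replicate block and without Atrx-cKO 1, Atrx-cKO 2 or control 2, and without control 1 the gene counted was *Npy* in place of *Gal*. DESeq2 gave an adjusted p to 7 of the 10 genes and counted 2 of them at an unadjusted p under 0.05 (*Gal* and *Npy*), against 4% of 23938 genes. The median log2 fold change of the 5 was -0.18, beside 0.0050 for all tested genes, and 1 of the 5 was positive.

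The reference gene *Cartpt*, which encodes the precursor of CART peptides, had 192, 146 and 149 CPM in the 3 Atrx-cKO libraries and 0, 0.0150 and 0.630 CPM in the 3 control libraries. Its groups were far apart, with a log2 fold change of 9.75 (SE 0.75; edgeR adjusted p = 0.0191). Over all alternatives the edgeR or DESeq2 adjusted p of *Cartpt* ran from 3.6e-08 to 0.150, and it rose to between 0.0709 and 0.150 when any of the Atrx-cKO libraries or control 2 was left out, and to 0.126 with the replicate number as a block. Of the 31 *Cartpt* counts in control libraries, 30 were in control 3, and without that library the log2 fold change was 14. Divided by exonic length, the Atrx-cKO mean was 127 CPM per exonic kb for *Cartpt* and 13.0 for *Npy*, and the control means were 0.168 and 19.2 CPM per exonic kb. The summed CPM of the 10 precursor genes was 10.6, 9.28 and 10.4 in Atrx-cKO and 9.22, 17.6 and 14.1 in control tibias. *Atrx* itself had 153, 166 and 171 CPM in Atrx-cKO and 174, 166 and 165 CPM in control tibias (log2 fold change -0.05, SE 0.08; edgeR adjusted p = 0.992). The counts cover the whole gene and not the floxed exon, and they come from all cells of the bone, so they do not check the deletion.

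**Figure D2:**
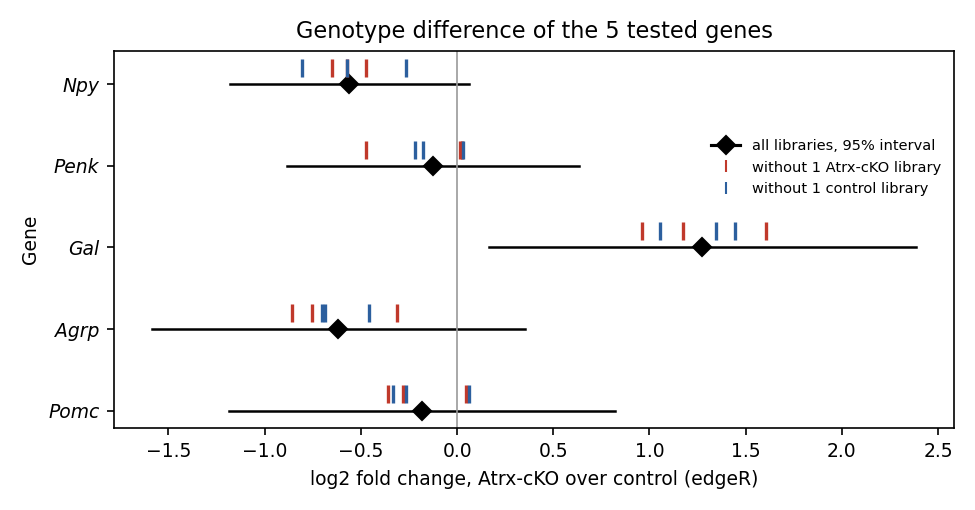
Log2 fold change of Atrx-cKO over control (x axis) for the 5 tested precursor genes (y axis), with diamonds for the fit to all 6 libraries, horizontal lines for 95% intervals, and ticks for fits without 1 library (red where an Atrx-cKO library and blue where a control library was left out). The interval of *Gal*, from 0.16 to 2.39, lies above 0 before adjustment for the number of genes tested, and the other 4 intervals include 0.

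*Npy* encodes neuropeptide Y, a peptide of sympathetic nerves and of the hypothalamus whose effects on bone involve the Y1 and Y2 receptors. The gene (ENSMUSG00000029819 at chr6:49822710-49829507, plus strand, GRCm38) had 7.50, 6.39 and 8.25 CPM in the Atrx-cKO libraries. The control libraries had 6.87, 14.9 and 10.9 CPM. The Atrx-cKO values lay close together and control 2 and 3 lay above them, while control 1 lay among the Atrx-cKO values, so the groups overlapped. The means were 7.38 ± 0.935 CPM in Atrx-cKO and 10.9 ± 4.0 CPM in control (SD, n = 3 each). The log2 fold change was -0.56 (SE 0.27; 95% interval, -1.18 to 0.06), with an edgeR adjusted p of 0.992 and an unadjusted p of 0.0705. Without control 1 the log2 fold change was -0.81 (edgeR adjusted p = 0.237, the lowest over all alternatives, which reached 1.0), and without control 2 it was -0.26. The unadjusted edgeR p of *Npy* was 0.00379 without control 1 and 0.0209 with no filter, and was over 0.05 in the other edgeR fits. The spread of *Npy* counts within groups was 47.9 times that of Poisson counting (chi-square per degree of freedom, 4 degrees of freedom), so counting error was a minor part of it.

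The order of the libraries in *Npy* was compared with osteoblast markers, since osteoblast lineage cells are a known source of this transcript. The summed CPM of 8 osteoblast markers (*Bglap*, *Bglap2*, *Ibsp*, *Col1a1*, *Alpl*, *Sp7*, *Runx2* and *Ifitm5*) was 63045, 63444 and 63729 in Atrx-cKO and 58616, 100508 and 89872 in control, with *Col1a1*, the gene of the alpha 1 chain of type I collagen, as the most abundant and between 90.3% and 92.2% of the sum. The same control libraries, 2 and 3, were high in both measures, and control 1 was lowest in the markers and below all but Atrx-cKO 2 in *Npy*. Expressed per 10000 CPM of these markers, *Npy* was 1.19, 1.01 and 1.29 in Atrx-cKO and 1.17, 1.48 and 1.21 in control, and the log2 ratio of the group means was -0.15. Without *Col1a1* in the sum the ratio was 15.3, 11.3 and 13.3 in Atrx-cKO and 13.5, 18.5 and 14.9 in control (log2 ratio of means, -0.23). Per 10000 CPM of *Runx2*, the gene of an osteoblast transcription factor, it was 436, 326 and 443 in Atrx-cKO and 431, 710 and 494 in control (log2 ratio of means, -0.44). The groups overlapped on each scale, and the difference in means depended on the marker chosen. These ratios were added after seeing the data, as a description with no test. In whole bone, fewer cells of a type and less RNA per cell cannot be told apart. The part of osteoblast content in the *Npy* values was not tested.

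**Figure D3:**
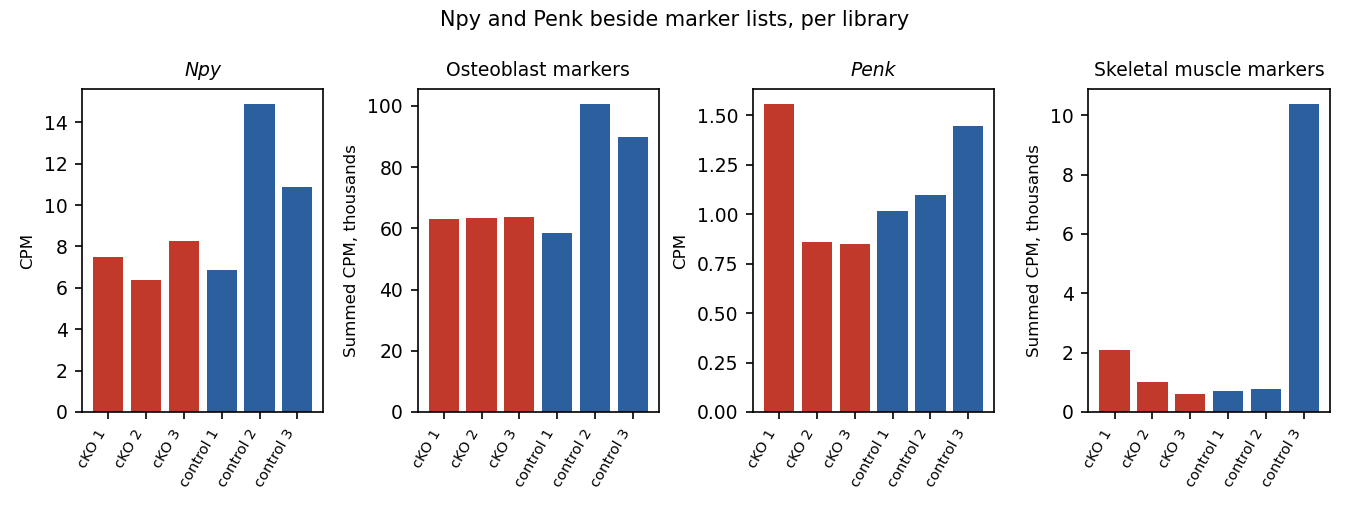
Bars from 0 for single libraries (red for Atrx-cKO and blue for control), showing from left to right *Npy* CPM, the summed CPM of 8 osteoblast markers divided by 1000, *Penk* CPM, and the summed CPM of 7 skeletal muscle markers divided by 1000. Control 2 and control 3 are the highest in *Npy* and in the osteoblast markers, and Atrx-cKO 1 and control 3 are the highest in *Penk* and in the muscle markers.

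Among the opioid and melanocortin precursors, *Penk* had the highest level per exonic kb. *Penk* encodes proenkephalin, the precursor of the enkephalins, and lies at chr4:4133531-4138819 on the minus strand. It had 1.56, 0.858 and 0.848 CPM in Atrx-cKO and 1.02, 1.10 and 1.45 CPM in control, with means of 1.09 ± 0.406 and 1.19 ± 0.230 CPM (SD, n = 3 each). Atrx-cKO 1 had the highest value of all libraries and the other 2 Atrx-cKO libraries the lowest, so the groups overlapped. The log2 fold change was -0.12 (SE 0.33; 95% interval, -0.88 to 0.64; edgeR adjusted p = 0.994), and its sign turned when Atrx-cKO 2, Atrx-cKO 3 or control 3 was left out. The 2 libraries with the highest *Penk* were also those with the highest sum of 7 skeletal muscle markers (*Myh4* the most abundant), which was 2080, 1016 and 616 CPM in Atrx-cKO and 692, 758 and 10364 CPM in control. The rest of the order differed. Atrx-cKO 2 had a higher muscle sum than control 1 and control 2 but a lower *Penk*. Control 3 had a higher muscle sum than Atrx-cKO 1 and also a lower *Penk*. The muscle list was set beside *Penk* after the values of the marker lists were seen, as a description. The part of muscle RNA in the *Penk* values was not tested. *Penk* shares 233 exonic bases with the gene *A830012C17Rik* on the opposite strand, which had between 9 and 34 counts per library, and it is uncertain whether the libraries and counts kept the strand.

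*Pomc* encodes proopiomelanocortin, the precursor of adrenocorticotropic hormone, the melanocyte-stimulating hormones and beta-endorphin. It had 0.205, 0.385 and 0.356 CPM in Atrx-cKO and 0.315, 0.285 and 0.483 CPM in control (means, 0.315 ± 0.0967 and 0.361 ± 0.107 CPM, SD, n = 3 each). Atrx-cKO 1 was the lowest library and control 3 the highest, and Atrx-cKO 2 and 3 lay above control 1 and 2, so the groups overlapped. The log2 fold change of -0.18 (SE 0.43; 95% interval, -1.19 to 0.82; edgeR adjusted p = 0.994) turned positive without Atrx-cKO 1 or control 3. With 12 to 23 counts per library, *Pomc* had a spread of 1.71 times Poisson counting. *Pdyn*, the precursor of the dynorphins, had 0 counts in all 6 libraries. A count of 0 allows up to 0.0172 CPM over the Atrx-cKO libraries and 0.0175 CPM over the control libraries, for counting error only.

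*Agrp* encodes agouti-related peptide, an antagonist at melanocortin receptors that hypothalamic neurons produce together with neuropeptide Y. In tibia it had 0.205, 0.455 and 0.509 CPM in Atrx-cKO and 0.526, 0.720 and 0.546 CPM in control. All Atrx-cKO values lay below all control values, with 0.509 and 0.526 CPM in the nearest libraries. On plain CPM, without the TMM factor, Atrx-cKO 3 (0.527) exceeded control 3 (0.510) and the groups overlapped. Groups that did not overlap were found for 8.31% of all tested genes (4.3% with Atrx-cKO higher and 4.01% with Atrx-cKO lower) and for 9.37% on plain CPM. The means of *Agrp* were 0.390 ± 0.162 and 0.597 ± 0.107 CPM (SD, n = 3 each), and the log2 fold change was -0.62 (SE 0.42; 95% interval, -1.59 to 0.35; edgeR adjusted p = 0.992). The annotated gene extends over 70696 bases on chromosome 8 and has 1013 exonic bases. It shares 114 of these with *Ctcf*, the gene of the chromatin insulator protein CTCF on the opposite strand, and with the predicted gene *Gm5914* on its own strand. *Ctcf* had between 5472 and 7825 counts per library and *Agrp* between 12 and 48. The share of reads from *Ctcf* among the counts of *Agrp* was not tested, and the level of *Agrp* is uncertain for this reason.

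*Gal* encodes the precursor of galanin, a peptide of sensory and enteric neurons that is known to rise in injured nerves. It had the largest log2 fold change among the 5 tested genes. Its counts in Atrx-cKO were 51, 61 and 22, or 0.872, 1.07 and 0.373 CPM. In control its counts were 12, 23 and 19, or 0.210, 0.345 and 0.399 CPM. Atrx-cKO 1 and 2 lay above all control libraries and Atrx-cKO 3 lay between control 2 and control 3, so the groups overlapped on TMM-normalized CPM. On plain CPM the groups did not overlap, with Atrx-cKO 3 at 0.386 and control 3 at 0.373. The means were 0.771 ± 0.358 CPM in Atrx-cKO and 0.318 ± 0.0972 CPM in control (SD, n = 3 each). The log2 fold change was 1.28 (SE 0.48; 95% interval, 0.16 to 2.39), with an unadjusted p of 0.0296 and an adjusted p of 0.992 in edgeR, and an unadjusted p of 0.0206 in DESeq2. The log2 fold change stayed between 0.96 and 1.61 when single libraries were left out, and it was under 2-fold without Atrx-cKO 2. The unadjusted edgeR p was 0.0799 without Atrx-cKO 1, 0.117 without Atrx-cKO 2, 0.0880 without control 1, 0.0568 without control 2 and 0.0638 with the replicate block, so under each of these *Gal* no longer counted at an unadjusted p under 0.05. It stayed under 0.05 without Atrx-cKO 3 (edgeR unadjusted p = 0.00655) and without control 3 (0.0381). *Gal* (chr19:3409915-3414544, minus strand) shares no exonic bases with another annotated gene.

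*Vip*, *Calca*, *Tac1* and *Nts* were near the floor in both genotypes. *Vip* had 5, 4 and 4 counts in Atrx-cKO and 2, 8 and 8 in control, and control 1 was the library at or under 3 counts. *Calca*, whose gene count does not separate the calcitonin from the CGRP transcript, had 6, 2 and 0 counts in Atrx-cKO and 10, 1 and 2 in control, so that 1 library of each group exceeded 3 counts. *Tac1* had 5, 0 and 0 counts in Atrx-cKO and 3, 7 and 0 in control. *Nts*, the precursor of neurotensin, a gut and brain peptide, had 2, 1 and 1 counts in Atrx-cKO and 1, 0 and 5 in control, and only control 3 exceeded the floor. The groups overlapped for each of these 4 genes, and no difference was detectable at this depth. The number of the 10 genes above 3 counts was 8, 6 and 6 in the Atrx-cKO libraries and 6, 7 and 7 in the control libraries.

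Markers of nerve tissue were examined beside the precursors. The 13 neuron and axon markers summed to 17.5, 20.0 and 18.4 CPM in Atrx-cKO and 21.1, 20.7 and 25.7 CPM in control, so that all Atrx-cKO sums lay below all control sums, whereas on plain CPM Atrx-cKO 2 (20.7) exceeded control 2 (19.6). The most abundant was *Tubb3*, a neuronal tubulin, with means of 7.63 ± 0.732 and 9.38 ± 1.34 CPM, followed by *Uchl1* (7.12 ± 1.21 and 7.74 ± 2.08 CPM), *Stmn2* (1.88 ± 0.476 and 2.66 ± 0.114 CPM) and *Nefh* (0.951 ± 0.0459 and 0.992 ± 0.367 CPM, SD, n = 3 each). Of the 13 markers, 8 were tested and 0 were called by edgeR or DESeq2, with 1 (*Nefm*, a neurofilament gene) at an unadjusted p under 0.05 in each tool, against 3.64% of all tested genes in edgeR and 4% in DESeq2. Their median log2 fold change was -0.40, beside 0.0050 for all tested genes, and 1 of the 8 was positive. In 3 of the 8 (*Nefm*, *Snap25* and *Stmn2*) all Atrx-cKO values lay below all control values, against 4.01% of all tested genes (8.31% in either direction). On plain CPM the groups of *Nefm* and *Stmn2* overlapped. *Dbh*, the gene of the enzyme that makes noradrenaline, had 0 counts in every library, and *Th*, the gene of tyrosine hydroxylase, had 4 counts in Atrx-cKO 2, 6 in control 1 and 0 elsewhere. *Nefm*, *Snap25*, *Dbh*, *Th* and *Scn9a* were chosen after their values were seen. *Scn9a*, a sodium channel of sensory neurons, had 12 counts in Atrx-cKO 1, 6 in control 2 and 0 in the other libraries, and those 2 libraries also had the highest *Tac1* counts, 5 and 7. The 8 Schwann cell markers summed to 52.6, 55.2 and 67.4 CPM in Atrx-cKO and 68.6, 53.9 and 51.8 CPM in control, with *Mbp* the most abundant, 0 of 8 called by either tool and 0 at an unadjusted p under 0.05.

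The genotypes were next compared for the receptors of these peptides. Of 27 receptor genes, 13 had more than 3 counts in every library, 14 were tested, 9 were at or under 3 counts in every library, and 6 of those (*Npy2r*, *Npy5r*, *Mc3r*, *Mc4r*, *Tacr2* and *Galr1*) had 0 counts throughout. None of the 14 was called by edgeR or DESeq2. In edgeR 0 of the 14 had an unadjusted p under 0.05, against 3.64% of all tested genes. Without control 1 the count was 2 of 14, beside 2076 of 21349 genes, and with no filter it was 1 of 21. In DESeq2 1 further receptor gene, *Npy6r*, had an unadjusted p under 0.05 but was given no adjusted p. The share was 4% of the genes that DESeq2 gave an adjusted p. The median log2 fold change of the 14 was 0.05, with 8 of 14 positive. *Sort1*, a sorting receptor that binds neurotensin, had the highest CPM, with 217 ± 19.2 CPM in Atrx-cKO and 216 ± 8.05 CPM in control (SD, n = 3 each), with a log2 fold change of 0.0046 (95% interval, -0.21 to 0.22).

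The 2 subunits of the CGRP receptor followed. *Ramp1* had 43.5 ± 5.84 and 45.3 ± 5.87 CPM (log2 fold change -0.06, SE 0.13), and *Calcrl* had 34.2 ± 2.14 and 31.5 ± 0.661 CPM (0.12, SE 0.08; SD, n = 3 each). All Atrx-cKO values of *Calcrl*, 32.9, 36.7 and 33.2 CPM, lay above the control values of 32.2, 30.9 and 31.5 CPM, and its edgeR adjusted p was 0.992. Over the same libraries *Calca*, the gene of their ligand, had between 0 and 10 counts. *Galr2*, a galanin receptor, had 4.85 ± 1.08 CPM in Atrx-cKO and 5.66 ± 0.828 CPM in control, and *Mc5r*, a melanocortin receptor, had 3.76 ± 1.67 and 3.51 ± 0.824 CPM. *Vipr2*, a receptor for vasoactive intestinal peptide, had 1.71, 2.15 and 2.43 CPM in Atrx-cKO and 2.59, 2.87 and 2.60 CPM in control. Its groups did not overlap, and the log2 fold change was -0.36 (SE 0.20; edgeR adjusted p = 0.992). *Calcrl* and *Vipr2* were the 2 of 14 receptor genes whose groups did not overlap, against 8.31% of all tested genes, and on plain CPM the groups of both overlapped.

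**Figure D4:**
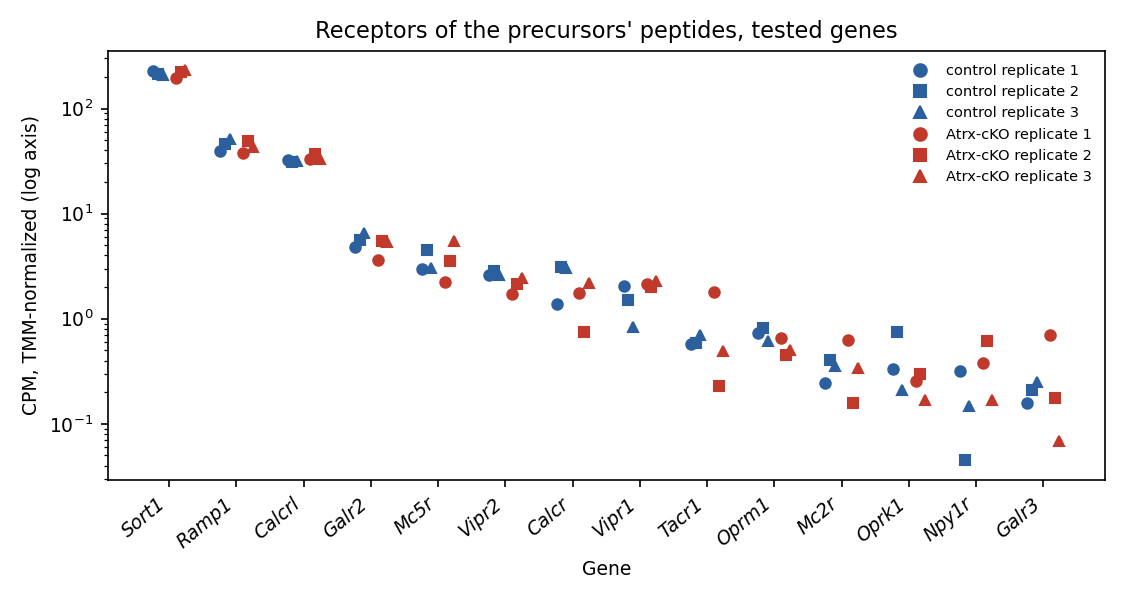
CPM of the 14 tested receptor genes (x axis, ordered by mean CPM) in each library on a log axis, with blue symbols for control and red for Atrx-cKO. *Sort1* lies near 217 CPM in both groups, *Ramp1* and *Calcrl* lie between 30.9 and 51 CPM, and the other 11 genes are at most 6.51 CPM in every library.

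The receptors of neuropeptide Y and of the tachykinins had few counts. *Npy1r*, the Y1 receptor, had 22, 35 and 10 counts in Atrx-cKO and 18, 3 and 7 in control, with a log2 fold change of 1.19 (SE 0.74; 95% interval, -0.53 to 2.92; edgeR adjusted p = 0.992). *Npy6r* had 0 counts in the 3 Atrx-cKO libraries and 4, 5 and 8 in the control libraries, and did not pass the filter. *Npy4r* had 11 counts in control 2 and at most 1 elsewhere. The tachykinin receptors varied with single libraries, since *Tacr1* had 105, 13 and 29 counts in Atrx-cKO and 33, 39 and 33 in control, and *Tacr3* was present in the same 2 libraries as *Scn9a*, with 6 counts in Atrx-cKO 1 and 5 in control 2. The receptors named in this paragraph were chosen after their values were seen.

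Genes needed to process precursors into peptides were partly present. Of 11 such genes, 4 had more than 3 counts in every library and were tested, and 0 were called by edgeR or DESeq2. In both tools 0 had an unadjusted p under 0.05, against 3.64% of all tested genes in edgeR and 4% in DESeq2. *Cpe*, which encodes carboxypeptidase E, had 688 ± 75.4 CPM in Atrx-cKO and 818 ± 204 CPM in control. *Pam*, the amidating enzyme, had 127 ± 5.33 and 129 ± 7.35 CPM, and *Furin*, a convertase of most cell types, had 121 ± 1.31 and 128 ± 7.16 CPM. *Scg5*, which encodes the chaperone of prohormone convertase 2, had 0.308 ± 0.255 and 0.596 ± 0.190 CPM (SD, n = 3 each). The neuroendocrine convertases *Pcsk1* and *Pcsk2*, named after their values were seen, had at most 8 counts in any library and 0 in at least 2 libraries each.

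The level of the 10 genes was set beside that of 43 further neuropeptide precursor genes. Of these, 8 had 0 counts in every library, 14 were at or under 3 counts in every library, 11 had more than 3 in every library and 12 were tested, with 0 called by edgeR or DESeq2 and a median log2 fold change of -0.23. In each tool 1 gene had an unadjusted p under 0.05, against 3.64% of all tested genes in edgeR and 4% in DESeq2. That gene was *Adm*, the precursor of the vasodilator adrenomedullin, with 2.87, 4.55 and 4.12 CPM in Atrx-cKO and 7.04, 5.84 and 5.35 CPM in control. All its Atrx-cKO values lay below all control values, also on plain CPM, and 1 further gene of the 12, *Ghrl* (ghrelin), had all Atrx-cKO values above all control values on both scales, against 8.31% of all tested genes without overlap on TMM-normalized and 9.37% on plain CPM. *Ghrl* was named after its values were seen. For *Adm* the log2 fold change was -0.66 (SE 0.21; 95% interval, -1.16 to -0.16; edgeR adjusted p = 0.992). *Nmb*, the precursor of neuromedin B, had 3.93 ± 1.09 and 5.70 ± 2.45 CPM, *Pmch*, the precursor of melanin-concentrating hormone, had 2.45 ± 0.291 and 2.22 ± 0.657 CPM, and *Npff* had 1.72 ± 0.268 and 1.70 ± 0.306 CPM in Atrx-cKO and control (SD, n = 3 each).

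The genes whose pattern over the 6 libraries was most like that of the 3 most abundant precursors are given as a description, by Pearson's r of log2(CPM + 0.5). For *Npy* these were *Tm9sf1* (r = 0.993), *Igkv4-55* (0.993) and *Lats2* (0.990). For *Penk* they were *Timm8b* (0.995), *Map3k12* (0.991) and *Gm29480* (0.991), and for *Gal* they were *Gm13431* (0.9754), *Sel1l* (0.973) and *Eral1* (0.973). With 6 libraries, 62, 78 and 23 of 20635 genes had an r over 0.95 with *Npy*, *Penk* and *Gal*, and all values of a library share its depth and tissue makeup.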

How the data were processed

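Total RNA of whole tibias was sequenced after poly(A) selection, in 3 Atrx-cKO and 3 control libraries. The deposited values are raw read counts per Ensembl gene, made by the authors or their sequencing provider. GRCm38 and DESeq2 (version not given) are named in the submitters' processing notes, and the aligner and counter are not given in the sources used here. Per the labels the libraries were strand specific, but the kit they name is one that does not mark strand, and whether the counts used strand is not stated. Genes took between 42.8% and 43.8% of all counted reads. The 5 summary rows (no feature, 51.6% to 52.4%; not unique, 3.69% to 4.56%; ambiguous, 0.644% to 0.701%; and others) were left out of library sizes and tests. Symbols came from GENCODE M21 (55141 of 55401 genes named).

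The genotypes were compared with edgeR 4.0.16 (TMM, default filter, quasi-likelihood test, 20636 genes) in R 4.3.3. Called genes passed a Benjamini-Hochberg adjusted p of 0.05 over all tested genes and differed by at least 1 on the log2 scale. DESeq2 1.42.0 was an alternative. SE is the log2 fold change divided by the square root of F. Other normalizations, filters, a replicate block and fits without each library were tried, and plain CPM was added after seeing the data. The members and gene lists were chosen with earlier results of these data known. Named genes were the 10 members, *Cartpt* and *Atrx*, the 6 most abundant receptors, up to 4 of the most abundant genes of the other neuropeptide, processing and neuron lists, called genes of any list, and the 3 genes most like each of the 3 most abundant members. Exceptions are marked as chosen after their values were seen. Marker lists of further cell types were run by the same fit and are given under the other observations. Promoter letters were read from RefSeq. The fits were tested on simulated data. All 6 libraries differed from others of their group by more than counting noise. The p-values measure the spread between these libraries, and floors cover counting error only.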

Additional observations from a re-analysis of the deposited data

How the results depend on the processing

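No tested member and no tested receptor gene was called in the reported fit or under any alternative run. The alternatives were RLE and upper quartile factors, no filter, at least 10 counts in every library, DESeq2, a replicate block, fits without each library, and library size only (added after seeing the data). Of the 10 members, 5 were tested in the reported fit, 7 with DESeq2 and 9 with no filter. Of the 27 receptor genes, 14 were tested in the reported fit, 11 with at least 10 counts in every library and 21 with no filter. The count of called genes over the whole table was 3 in the reported fit. It was 5 (4 higher, 1 lower) without a filter, 1 with at least 10 counts in every library, 23 (10 higher, 13 lower) with DESeq2, and 0 with the replicate block, where 977 genes had an unadjusted p under 0.05. Without single libraries it ranged from 0 (without Atrx-cKO 1, Atrx-cKO 2 or control 2) to 5 (without control 3), and the cause was not tested. The deviations of same-numbered libraries correlated at -0.0031, 0.108 and -0.0996, so the numbers were not taken to pair mice. With the replicate block the log2 fold changes were -0.50 for *Npy*, -0.68 for *Agrp*, -0.20 for *Pomc*, -0.17 for *Penk*, 1.21 for *Gal* and 9.80 for *Cartpt* (edgeR adjusted p = 0.126).

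Without single libraries the log2 fold change ranged from -0.81 to -0.26 for *Npy*, -0.86 to -0.31 for *Agrp*, -0.36 to 0.060 for *Pomc*, -0.47 to 0.028 for *Penk*, 0.96 to 1.61 for *Gal* and 9.10 to 14 for *Cartpt*. *Cartpt* did not pass the filter of 10 counts in every library, so that setting gave no value for it. The log2 fold change turned positive for *Pomc* without Atrx-cKO 1 (0.047) or control 3 (0.060), and for *Penk* without Atrx-cKO 2 (0.013), Atrx-cKO 3 (0.025) or control 3 (0.028). *Vip*, *Calca*, *Tac1* and *Nts*, with at most 10 counts in any library, did not pass the default filter.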

Other observations

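Marker lists of other cell types in the bone gave the makeup of the libraries in which the precursor genes were measured. No gene of these lists was called by edgeR or DESeq2. Osteocyte markers (*Dmp1* the highest) summed to 1087, 1238 and 1219 CPM in Atrx-cKO and 1345, 1213 and 1286 CPM in control, with overlapping groups. Osteoclast markers (*Acp5* the highest) summed to 2421, 1996 and 2725 CPM in Atrx-cKO and 3115, 2285 and 3770 CPM in control, and all 6 had a negative log2 fold change, with a median of -0.37 and 0 at an unadjusted p under 0.05 in edgeR and 3 in DESeq2 (*Ctsk*, *Acp5* and *Dcstamp*), against 3.64% and 4% of all genes tested by each tool. Osteoblast markers had a median of -0.20 and 0 of 8 positive. At an unadjusted p under 0.05 were 1 of 8 in edgeR (*Ibsp*) and 2 in DESeq2 (*Ibsp* and *Col1a1*), against the same 3.64% and 4%. *Ibsp* was also the 1 of 8 without overlap, with all Atrx-cKO values below all control values, also on plain CPM. Of all tested genes, 4.01% had Atrx-cKO lower without overlap on TMM-normalized CPM. Chondrocyte markers summed to 1164, 795 and 1046 CPM in Atrx-cKO and 1087, 1586 and 1595 CPM in control, and *Col2a1*, the gene of type II collagen, made up most of the sum and was the 1 of 5 tested at an unadjusted p under 0.05 in both tools, while the median log2 fold change of the 5 was 0.19 with 3 positive.

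Blood cell lists varied with single libraries. All tested genes had a positive log2 fold change in the neutrophil (7, median 0.20), B cell (6, median 0.15), erythroid (6, median 0.09) and megakaryocyte and platelet lists (5, median 0.33). In the T cell list 4 of 7 were positive (median 0.05), and in the skeletal muscle list 0 of 7 (median -1.53). The median of all tested genes was 0.0050. Skeletal muscle markers summed to 2080, 1016 and 616 CPM in Atrx-cKO and 692, 758 and 10364 CPM in control. Only control 3 lay above all Atrx-cKO libraries, and control 1 and 2 lay below Atrx-cKO 1 and 2. The lower muscle sum in Atrx-cKO therefore rests on control 3. Genes of a list are not independent of each other. Megakaryocyte and platelet markers summed to 1401, 1433 and 1352 CPM in Atrx-cKO and 1601, 866 and 849 CPM in control, so that the control libraries high in osteoblast markers and in *Npy*, 2 and 3, were the lowest in this list. Erythroid markers summed to 4199, 3200 and 3670 CPM in Atrx-cKO and 5231, 2070 and 2572 CPM in control, and neutrophil markers to 12503, 9152 and 8836 CPM and to 10412, 8683 and 7263 CPM. B cell markers summed to 144, 168 and 200 CPM in Atrx-cKO and 211, 95.9 and 148 CPM in control, and T cell markers to 29.0, 29.1 and 30.7 CPM and to 36.1, 40 and 30.0 CPM. Adipocyte markers summed to 165, 251 and 262 CPM in Atrx-cKO and 223, 164 and 236 CPM in control. In the blood cell and adipocyte lists, 0 genes had an unadjusted p under 0.05 in edgeR or DESeq2. Genes named in these paragraphs beyond the most abundant of a list were chosen after their values were seen.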
